A study of Mus musculus with 8 samples.

Results

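DNA methyltransferases place methyl groups on cytosine, and the members described here are Dnmt1, Dnmt3a, Dnmt3b, Dnmt3l and Uhrf1, the last being the factor that brings Dnmt1 to newly copied DNA. They were measured in whole testes of both wild type mice and mice deficient in VRK1. Every probe other than a control whose gene name in the array files was 1 of these 5 was taken. This gave 8 of 41174 probes, 3 for Dnmt3a, 2 for Uhrf1 and 1 for each of the other members, of 27962 gene names on the array. All 8 probes were well above background on all 8 arrays, none was saturated, and all entered the test over 26962 probes.

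The study asked what loss of the kinase VRK1 does to male germ cells, and total RNA of testicular cells, taken on postnatal day 8 and carrying the dye Cy3, was read on 1-color whole genome arrays. There were 4 biological replicates of each genotype and 1 array for each replicate. Wild type mice carried an intact Vrk1 gene. VRK1-deficient mice carried a β-geo gene trap in an intron of Vrk1, derived from the single ES cell clone RRR178 and backcrossed to C57BL/6. The allele is hypomorphic, and the paper reports some full length VRK1 in homozygotes. It names heterozygous carriers apart from VRK1-deficient mice, and the sample titles give no zygosity. Replicates 1 and 2 of either genotype shared slide 1, and replicates 3 and 4 shared slide 2. Wild type samples took array positions 1 and 2 on each slide and VRK1-deficient samples took positions 3 and 4, so position and genotype cannot be told apart. A level is the log2 processed signal minus the 75th percentile of its array, which lay between 548.4 and 850.6 intensity units, and a log2 change is VRK1-deficient minus wild type.

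After DNA replication the new strand carries no methyl groups. Uhrf1 binds such half-methylated sites and Dnmt1 copies the mark onto the new strand, which keeps a pattern through cell division. Dnmt3a and Dnmt3b place new marks, and Dnmt3l, which has no catalytic activity of its own, binds and stimulates them. In male germ cells, the marks of paternal imprints and of transposons are laid down before birth, in cells that have stopped dividing, and dividing spermatogonia then have to maintain them.

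Vrk1 served as the check of the labels. With probe A_51_P102339 (chr12:103556489-103557469, build mm7) the wild type samples read -0.20, -0.11, 0.59 and 0.35 and the VRK1-deficient samples -3.97, -3.68, -3.58 and -4.17. The probe was thus lower on all 4 VRK1-deficient arrays than on any wild type array, at 6.23% of the wild type level (log2 change -4.00, SE 0.21, limma adjusted p = 0.000135). A_52_P555672 (chr12:103560461-103560520) gave 6.54% of it (log2 change -3.93, SE 0.15, limma adjusted p = 2.09e-05). Under normexp these levels were 14.5% and 18.0% (log2 changes -2.79 and -2.47), and A_51_P102339 was not called within slide 1 alone (limma adjusted p = 0.0636, with 1.07e-06 to 0.0636 over all alternatives). Both probes were still well above background on all 4 VRK1-deficient arrays. Whether they lie before or after the inserted trap was not determined here.

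Wild type replicate 1 stood apart from the other wild type samples. Its log2 signals over the tested probes correlated with those of the 4 VRK1-deficient arrays at a Pearson r between 0.987 and 0.990, and with those of the remaining 3 wild type arrays at 0.970 to 0.986. Where leaving it out changed the call of a member, or of a listed gene whose log2 change is given here, both are therefore given. Over all tested probes 986 were called at a limma adjusted p under 0.05, 535 lower and 451 higher in VRK1-deficient testes. Without that sample 7659 were called, and with any other single array left out 3 to 68 were. When signals were not scaled between arrays, the median change of all probes moved from 0.04 to -0.14 and the calls split into 852 lower and 64 higher.

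Of the 8 member probes, 1 was called, against 3.66% of all tested probes, and on 4 the genotypes did not overlap, against 16.7% of all tested probes. The called probe was that of Dnmt3b. Without wild type replicate 1, 5 of the 8 were called, against 28.4% of all tested probes. With any other single array left out 0 of 8 were, where 3 to 68 of all 26962 tested probes were called. At an unadjusted limma p under 0.05 there were 5 of 8, against 28.8% of all tested probes, and 4 to 5 with any array other than wild type replicate 1 left out. Taking the brightest probe of each gene, 5 of 5 genes had a negative log2 change, with a median of -0.74, and over all tested probes the median was 0.04 and 45.5% were negative. These signs held with quantile normalization, with the normexp background correction and without scaling. Whole testes were measured, so fewer cells of a type and less RNA in each cell cannot be told apart.

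**Figure D1:**
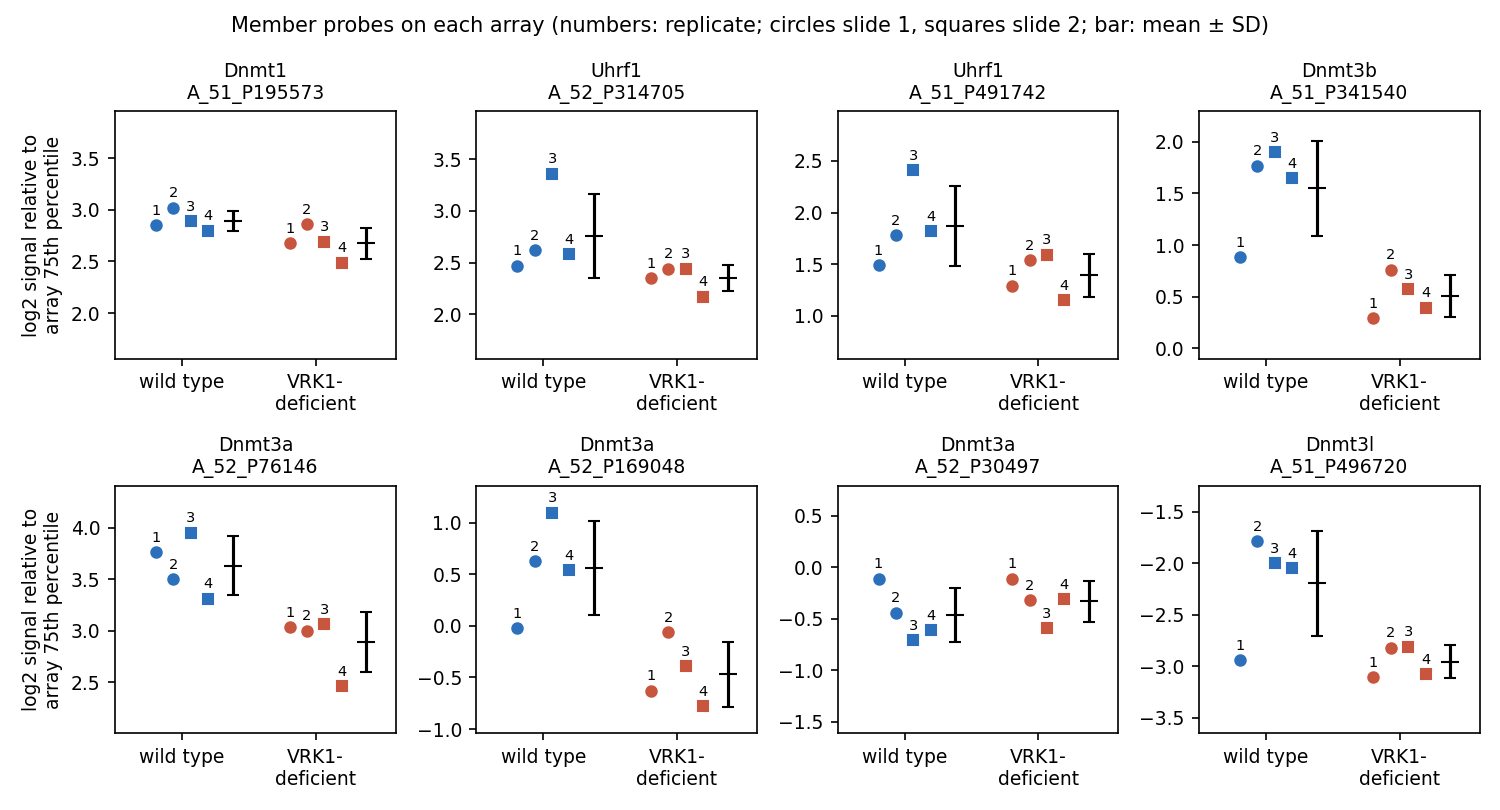
Level of each member probe on each array (y axis, log2 signal minus the array's 75th percentile; every panel spans the same range), for wild type (blue) and VRK1-deficient (red) samples, with circles for slide 1, squares for slide 2, the replicate number above each point and black bars for mean ± SD (n = 4). The genotypes do not overlap for Dnmt3b, Dnmt3a A_52_P76146 and A_52_P169048 and Uhrf1 A_52_P314705, and wild type replicate 1 lies lowest of its genotype for Dnmt3b, Dnmt3l, Dnmt3a A_52_P169048 and both Uhrf1 probes.

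Dnmt1, the maintenance methyltransferase, was measured with A_51_P195573 (NM_010066). Wild type samples read 2.85, 3.02, 2.89 and 2.80, and VRK1-deficient samples 2.68, 2.86, 2.69 and 2.49. Of the VRK1-deficient samples, 3 of 4 lay below the lowest wild type sample, and replicate 2 lay within the wild type range. The mean was 2.89 ± 0.10 in wild type and 2.68 ± 0.15 in VRK1-deficient testes (SD, n = 4). The log2 change of -0.21 (SE 0.12, 95% interval -0.48 to 0.05, limma adjusted p = 0.257) did not pass the test, and 55.9% of tested probes had a larger absolute change. It was -0.17 within slide 1 and -0.26 within slide 2, and -0.39 without scaling between arrays.

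Uhrf1, which recognizes half-methylated sites and recruits Dnmt1, had 2 probes for NM_010931 that lie 43 bases apart on chromosome 17 of build mm7. A_52_P314705 read 2.47, 2.62, 3.36 and 2.58 in wild type and 2.35, 2.44, 2.44 and 2.17 in VRK1-deficient testes. Wild type replicate 3 was well above the 3 others, and the genotypes did not overlap, though the lowest wild type sample was close to the highest VRK1-deficient samples. A_51_P491742 read 1.49, 1.78, 2.41 and 1.82 in wild type and 1.29, 1.54, 1.59 and 1.15 in VRK1-deficient testes. Here too wild type replicate 3 was highest, and wild type replicate 1 lay below replicates 2 and 3 of the VRK1-deficient samples.

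The log2 change was -0.40 for A_52_P314705 (SE 0.20, 95% interval -0.84 to 0.04, limma adjusted p = 0.205). For A_51_P491742 it was -0.48 (SE 0.20, 95% interval -0.93 to -0.03, limma adjusted p = 0.153). Neither passed the test. Within slide 1 the changes were -0.14 and -0.22, and within slide 2, which holds the high wild type replicate 3, they were -0.66 and -0.74. Without wild type replicate 1 the second probe passed it (log2 change -0.61, limma adjusted p = 0.0428, with 0.0428 to 0.646 over all alternatives). Without wild type replicate 3 the log2 changes were -0.20 for A_52_P314705 and -0.30 for A_51_P491742 (limma adjusted p = 0.264, with 0.0915 to 0.692 over all alternatives, and 0.228). The difference between both Uhrf1 probes on an array moved by -0.08 between the genotypes (exact permutation p = 0.314, two-sided, and 0.314 when adjusted for the 4 pairs of probes).

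Dnmt3a and Dnmt3b, the enzymes that place new marks, had the 2 probes with the lowest log2 changes among the members. The Dnmt3b probe A_51_P341540 (NM_010068, chr2:153428204-153428263, build mm7) read 0.88, 1.77, 1.90 and 1.65 in wild type and 0.29, 0.76, 0.57 and 0.39 in VRK1-deficient testes. All 4 VRK1-deficient samples lay below the lowest wild type sample, replicate 1, which itself was well under the 3 other wild type samples. Dnmt3b fell by 1.05 on the log2 scale, to 48.4% of wild type (SE 0.22, 95% interval -1.55 to -0.55, limma adjusted p = 0.0473), and 3.06% of tested probes had a larger absolute change. On slide 1 alone the change was -0.80, and on slide 2 alone -1.29.

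The call for Dnmt3b lay close to the threshold. Without wild type replicate 1 the log2 change was -1.27 (limma adjusted p = 0.00323), and with any other single array left out it was -1.13 to -0.93 with a limma adjusted p of 0.0738 to 0.149. With slide as a block the limma adjusted p was 0.0507, and the adjusted p over all 19 alternatives, the methods' t-test among them, was between 0.00323 and 0.509, under 0.05 in 8 of them. The direction was the same in 19 of 19.

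Dnmt3a has 3 probes, each assigned to NM_007872, and they are described here from left to right along the plus strand of chromosome 12 in build mm7. A_52_P76146 spans chr12:3825243-3826024, and its 60 bases are spread over 782 bases of genome, as those of a spliced transcript would be. A_52_P169048 follows 577 bases further on, at chr12:3826602-3826661. A_52_P30497 lies another 4303 bases away, at chr12:3830965-3831024. Which part of the transcript each probe reads was not determined here, since no gene model of that build was used.

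With A_52_P76146 the wild type samples read 3.76, 3.50, 3.95 and 3.31 and the VRK1-deficient samples 3.03, 3.00, 3.06 and 2.46. Every VRK1-deficient sample was below every wild type sample, and VRK1-deficient replicate 4 was well below the 3 others of its genotype. The log2 change was -0.74, or 59.8% of wild type (SE 0.19, 95% interval -1.16 to -0.32), and the limma adjusted p of 0.0578 did not pass the test. It was -0.61 within slide 1 and -0.87 within slide 2. Leaving out wild type replicate 1 gave a limma adjusted p of 0.0355, and the 19 alternatives gave 0.0292 to 0.500, with 6 of them under 0.05.

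A_52_P169048 read -0.02, 0.63, 1.10 and 0.54 in wild type and -0.63, -0.06, -0.39 and -0.78 in VRK1-deficient testes. The genotypes did not overlap, but wild type replicate 1 came close to VRK1-deficient replicate 2. The log2 change was -1.03, or 49.0% of wild type (SE 0.24, 95% interval -1.58 to -0.48, limma adjusted p = 0.0515), just short of the test. By slide it was -0.65 on slide 1 and -1.41 on slide 2. Leaving out wild type replicate 1 gave -1.22 (limma adjusted p = 0.00584), and the 19 alternatives ranged from 0.00584 to 0.513, with 7 of them under 0.05.

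A_52_P30497 read otherwise. Wild type samples were at -0.11, -0.44, -0.71 and -0.61, and VRK1-deficient samples at -0.11, -0.32, -0.59 and -0.31. The ranges overlapped nearly in full, and wild type replicate 1 was here the highest of its genotype. The log2 change was 0.13 (SE 0.16, 95% interval -0.23 to 0.50, limma adjusted p = 0.601), with 0.06 within slide 1 and 0.21 within slide 2. It was -0.044 when signals were not scaled between arrays, so it has no settled direction.

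Since a probe that passes a test and a probe that does not are not thereby shown to differ, the difference of each pair of probes of a gene on the same array was tested, 4 pairs in all. The signal of A_52_P30497 minus that of A_52_P76146 was -4.10 ± 0.38 in wild type and -3.22 ± 0.37 in VRK1-deficient testes (SD, n = 4 arrays each), a shift of 0.88 with no overlap between genotypes. The exact two-sided permutation p of 0.0286 is the smallest that 4 against 4 samples allow, and adjusted over the 4 pairs it was 0.114, which did not pass and could not have unless 3 of the 4 pairs had reached the smallest p. By slide the shift was 0.67 and 1.08. The signal of A_52_P169048 minus that of A_52_P30497 moved by -1.16 with overlap (exact permutation p = 0.0857, adjusted 0.171). Between A_52_P169048 and A_52_P76146 the shift was -0.29 (exact permutation p = 0.314, adjusted 0.314).

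**Figure D2:**
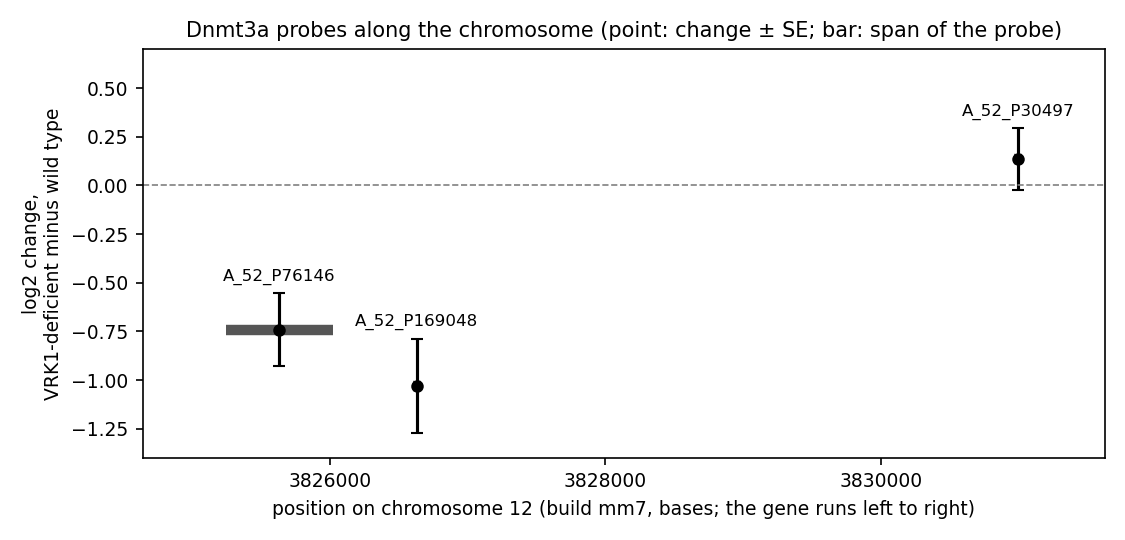
Log2 change between genotypes (y axis, VRK1-deficient minus wild type, point ± SE, n = 4 arrays a genotype) of the 3 Dnmt3a probes against their position on chromosome 12 of build mm7 (x axis, bases), with grey bars for the genomic span of each probe. The 2 probes on the left are at -0.74 and -1.03 and the probe on the right is at 0.13, a value that turned to -0.044 without scaling between arrays.

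The 60 bases of the Dnmt3a probe A_52_P76146 and of the Dnmt1 probe A_51_P195573 are shown because these are the member probes whose bases are not contiguous in the genome. The Dnmt1 probe covers chr9:20784085-20784453 on the minus strand of build mm7, 369 bases of genome. Read from 5′ to 3′ in the 3 frames, A_52_P76146 has 1 frame without a stop codon, A_52_P169048 has 0 and A_52_P30497 has 1, as the Dnmt1 probe has 2.
Dnmt3a A_52_P76146: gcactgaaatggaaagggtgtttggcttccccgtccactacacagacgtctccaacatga
Dnmt1 A_51_P195573: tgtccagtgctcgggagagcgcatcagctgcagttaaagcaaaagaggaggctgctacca

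Dnmt3l, the cofactor that stimulates Dnmt3a and Dnmt3b in germ cells, was measured with A_51_P496720 (NM_019448, chr10:77717971-77718030, build mm7). Wild type samples read -2.94, -1.79, -2.00 and -2.05 and VRK1-deficient samples -3.11, -2.82, -2.81 and -3.08. Wild type replicate 1 lay among the VRK1-deficient samples, and the 3 other wild type samples lay above all of them. Before scaling, the signal was 87.0 intensity units in wild type replicate 1, 161 to 246 in the other wild type samples and 65 to 105 in the VRK1-deficient samples. The log2 change was -0.76, or 59.0% of wild type (SE 0.23, 95% interval -1.29 to -0.23, limma adjusted p = 0.0816), and it did not pass the test. It was -0.60 within slide 1 and -0.92 within slide 2. With wild type replicate 1 left out it reached -1.01 (limma adjusted p = 0.00351, with 0.00351 to 0.589 over all alternatives). Under normexp its log2 change was -0.41, which was not called (limma adjusted p = 0.121).

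The 5 genes were also set against each other by the per-array difference of their brightest probes, over 10 pairs. Dnmt1 minus Dnmt3b moved by 0.83 and Dnmt1 minus Dnmt3a by 0.53 between the genotypes, and Dnmt3b minus Uhrf1 by -0.64. In each of these 3 pairs the genotypes did not overlap, and the exact two-sided permutation p was 0.0286, the smallest possible, and 0.0952 after adjustment over the 10 pairs. Within slides 1 and 2 these shifts were 0.63 and 1.04, 0.45 and 0.61, and -0.66 and -0.63. For the 7 other pairs the exact permutation p was 0.0571 or more. Dnmt3a minus Dnmt3l moved by 0.02, with a sign that turned under several alternatives, and Dnmt1 minus Uhrf1 by 0.19, which was -0.02 within slide 1. At an adjusted p under 0.05, 0 of the 10 pairs passed, but with 4 against 4 samples none can pass unless 6 or more of the 10 reach the smallest p together. By limma on the same differences, a test chosen after seeing the data, 2 of the 10 pairs passed, and of the 4 pairs of probes 2 did.

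Over the 8 arrays, the probes closest in pattern to the brightest probe of each member are given by Pearson r, as a description with no test. For Dnmt3b they were Hes5, Brsk2 and Sertad4 (r = 0.998, 0.997 and 0.997), with log2 changes of -1.5, -1.32 and -0.73, all called lower (limma adjusted p = 0.0471, 0.0473 and 0.0488). These 3 calls too were lost with any array other than wild type replicate 1 left out (limma adjusted p up to 0.151, and up to 0.510 over all alternatives). For Dnmt3a they were Ncoa6 (r = 0.992), Abcf1 (r = 0.989) and Sart3 (r = 0.983), and for Dnmt3l they were Mrpl38 (r = 0.996), Adssl1 (r = 0.993) and Dscam (r = 0.992). Dnmt1 was nearest to Grk2 (r = 0.970), Foxk1 (r = 0.959) and Rrad (r = 0.956). Uhrf1 was nearest to Ccdc85b (r = 0.994), Dph2 (r = 0.991) and Pias2 (r = 0.988). No member was among the nearest 3 of another. Between the brightest probes of the members, r ranged from 0.573 (Dnmt1 with Uhrf1) to 0.966 (Dnmt3b with Dnmt3l). Dnmt3b and Dnmt3a A_52_P169048 had an r of 0.976, whereas Dnmt3a A_52_P30497 ran against every other member probe (r between -0.769 and -0.224).

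Beyond the members, 7 lists of 60 genes were taken, of which 58 were tested, each by its brightest probe. The lists hold genes of DNA methylation and of methyl donor supply, 15 S phase genes and the tRNA methyltransferase Trdmt1. In all, 1 was called lower and 1 higher, against 3.66% of all tested probes, with 17 at an unadjusted limma p under 0.05, against 28.8%, and a median log2 change of -0.11. By the methods' t-test 1 had an adjusted p under 0.05, as had 162 of all 26962 tested probes. By limma without wild type replicate 1 there were 21, against 28.4% of all tested probes. With any other single array left out there were 0, where 3 to 68 of all tested probes were called. At an unadjusted p under 0.05 these runs gave 11 to 16 genes, and their share of all tested probes is not given here.

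Among partners of maintenance methylation 0 of 9 genes were called by limma, against 3.66% of all tested probes. At an unadjusted p under 0.05 there were 2, against 28.8%, and the median log2 change was -0.24. Hells, a chromatin remodeler needed for normal methylation, read 0.96, 1.83, 2.56 and 2.13 in wild type and 0.76, 1.30, 1.35 and 0.80 in VRK1-deficient testes (log2 change -0.82, SE 0.32, limma adjusted p = 0.133). Its wild type replicate 1 again lay within the VRK1-deficient range, and without that sample Hells was called, at -1.12 (limma adjusted p = 0.00928, with 0.00928 to 0.693 over all alternatives). Within slides 1 and 2 the changes were -0.36 and -1.27. Usp7, a deubiquitinase that binds Dnmt1 and Uhrf1, read 4.44, 4.15, 4.54 and 4.60 in wild type and 2.67, 3.78, 4.16 and 4.11 in VRK1-deficient testes (log2 change -0.75, SE 0.31, limma adjusted p = 0.146). In this gene it was VRK1-deficient replicate 1 that stood low, and without it the log2 change was -0.42 (limma adjusted p = 0.222, with 0.0618 to 0.500 over all alternatives), as it was -0.44 within slide 2.

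Guides and protectors of de novo or imprint methylation had the lowest median of the 7 lists, -0.62 over 11 tested genes of 12. Of these, 9 were lower and 2 higher, and 1 was called, against 3.66% of all tested probes. At an unadjusted p under 0.05 there were 8 of 11, against 28.8% of all tested probes. Several genes of this list, such as Piwil2 and Piwil4, are themselves expressed in germ cells, and the pan germ cell markers described further on were lower too, 7 of 7 with a median of -1.03. The part of germ cell content in the values of this list was not tested. No probe of Ctcfl was used here. Piwil4, the PIWI protein that directs methylation to transposons in fetal male germ cells, read -1.53, -0.62, 0.01 and -0.74 in wild type and -2.01, -1.69, -2.08 and -2.14 in VRK1-deficient testes, with no overlap. It fell by 1.26 (SE 0.28, limma adjusted p = 0.0492), and without wild type replicate 1 by 1.53 (limma adjusted p = 0.00354). It was not called with any other single array left out (limma adjusted p up to 0.150), with quantile normalization, with no filter on dim probes, with slide as a block, within slide 1 or by the methods' t-test (adjusted p up to 0.509 over all alternatives). The log2 change of Piwil4 was -0.77 within slide 1 and -1.75 within slide 2.

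Dppa3, which protects methylation in the early embryo and binds Uhrf1, read -3.71, -2.59, -1.45 and -2.25 in wild type and -6.13, -4.20, -4.09 and -4.94 in VRK1-deficient testes. It was well above background on all 4 wild type arrays and on 3 of 4 VRK1-deficient arrays, the exception being replicate 1, so the log2 change that includes it has no exact size. With it the change was -2.34 (SE 0.54, limma adjusted p = 0.0505), which did not pass, though the genotypes did not overlap, and without VRK1-deficient replicate 1 it was -1.91 (limma adjusted p = 0.147). It passed without wild type replicate 1 (limma adjusted p = 0.00716, with 0.00716 to 0.500 over all alternatives) and with the replicate number as a block (limma adjusted p = 0.02). It also passed without scaling, with slide as a block, within slide 2 and with intensity trend and robust variances. With the normexp background correction the log2 change was -0.86 (limma adjusted p = 0.0766). Piwil2, another PIWI protein of germ cells, had a log2 change of -1.05 (SE 0.41, limma adjusted p = 0.135), with overlap. It was called without wild type replicate 1, at -1.395 (limma adjusted p = 0.0185, with 0.0185 to 0.588 over all alternatives), and within slide 2, at -1.46, and was at -0.63 within slide 1.

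Lists outside the placing of marks had medians near that of all probes. Their counts stand beside 3.66% of all tested probes called and 28.8% at an unadjusted limma p under 0.05. Readers of methylated DNA had 0 of 8 called by limma (0 at an unadjusted p under 0.05) and a median of 0.16, with Zbtb4 at 0.25 (SE 0.16), which was 0.38 without wild type replicate 1 (limma adjusted p = 0.0406, with 0.0406 to 0.902 over all alternatives) and 0.07 without scaling. For removal of DNA methylation 0 of 7 tested genes of 8 were called by limma (2 at an unadjusted p under 0.05) and the median was 0.05. In that list Gadd45b was at -0.57 (SE 0.15, limma adjusted p = 0.0618), and at -0.31 within slide 1. It was called without wild type replicate 1, at -0.64 (limma adjusted p = 0.0180, with 0.0180 to 0.584 over all alternatives), and with intensity trend and robust variances. Tet1, which oxidizes methylcytosine, was at 0.54 (SE 0.24, limma adjusted p = 0.174). Tet1 was at 0.31 without wild type replicate 3, at 0.75 without wild type replicate 1 (limma adjusted p = 0.0226, with 0.0226 to 0.727 over all alternatives), and at 0.19 and 0.90 within slides 1 and 2. Methyl donor supply had 0 of 7 called by limma (1 at an unadjusted p under 0.05) and a median of 0.04. In it Mtrr was at -0.24 (SE 0.14), with 0.03 within slide 1 and -0.51 within slide 2, and its other tested probe was at 0.37. Trdmt1, the tRNA methyltransferase of the family, was at -0.07 (SE 0.15, limma adjusted p = 0.783).

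Genes of S phase, when Dnmt1 and Uhrf1 act, had 1 of 15 called, against 3.66% of all tested probes, and 4 at an unadjusted p under 0.05, against 28.8%. The median log2 change was -0.14, with 12 lower and 3 higher. The call was for Pola1, a subunit of DNA polymerase alpha, which rose from 0.14, 0.00, 0.03 and 0.07 in wild type to 0.55, 0.59, 0.71 and 0.52 in VRK1-deficient testes (log2 change 0.53, SE 0.10, limma adjusted p = 0.0446). It was not called with any single array other than wild type replicate 1 left out (limma adjusted p up to 0.147), without scaling between arrays (0.357), with no filter on dim probes or within either slide alone (adjusted p up to 0.500 over all alternatives). Pole, of DNA polymerase epsilon, was at -0.57 (SE 0.17, limma adjusted p = 0.0786). It was called without wild type replicate 1, at -0.71 (limma adjusted p = 0.00756, with 0.00756 to 0.558 over all alternatives), and with normexp. Cdc6, which loads the replicative helicase, was at -0.49 (SE 0.22, limma adjusted p = 0.174), and its other tested probe was at 0.76. It was called without wild type replicate 1, at -0.69 (limma adjusted p = 0.0141, with 0.0141 to 0.746 over all alternatives), and was at -0.25 within slide 1. The summed level of the 15 genes, in units of each array's 75th percentile, was 161, 193, 220 and 196 in wild type and 159, 184, 192 and 158 in VRK1-deficient testes, and the genotypes overlapped. The brightest probe of the list was that of Mcm6, though signals of different probes do not rank transcripts.

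**Figure D3:**
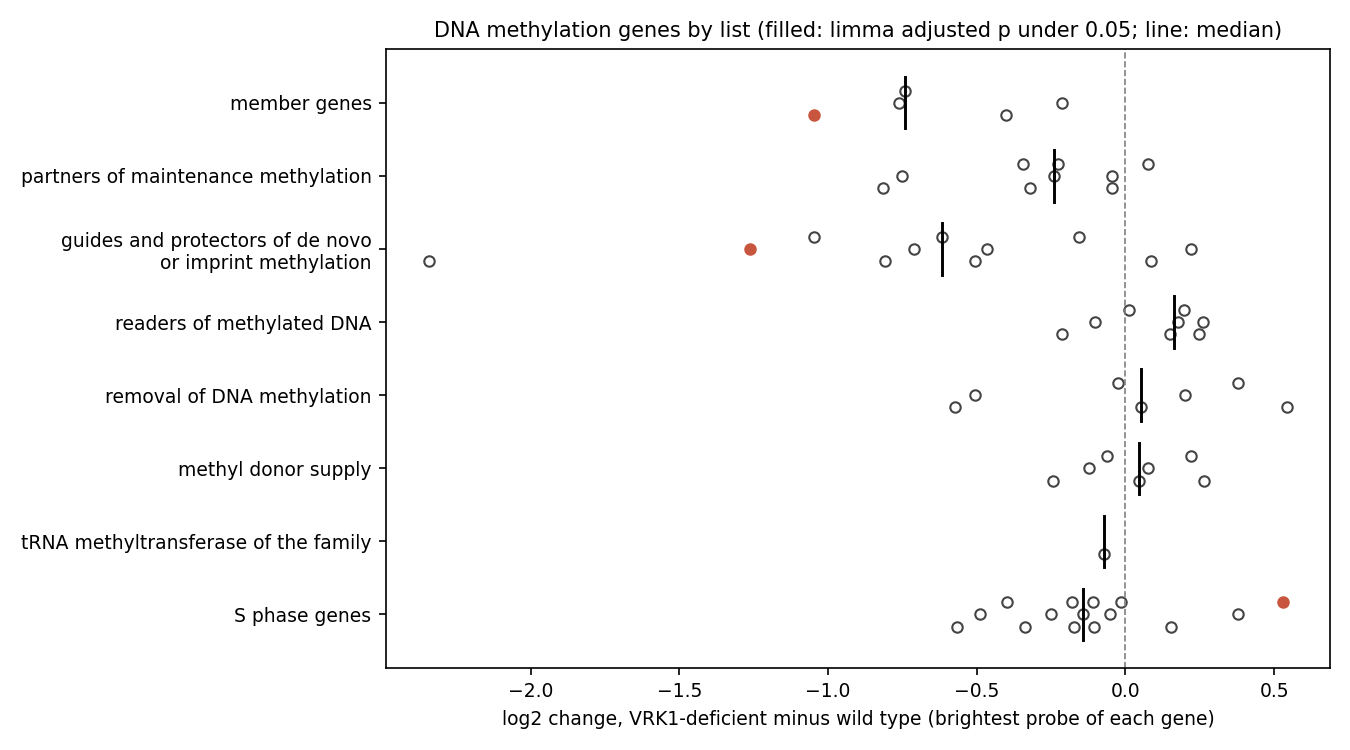
Log2 change of each tested gene (x axis, VRK1-deficient minus wild type, brightest probe), in rows by list, with filled points for a limma adjusted p under 0.05 and a line at the median of each list. The member genes and the guides and protectors have medians of -0.74 and -0.62, and the other lists lie between -0.24 and 0.16.

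Mean levels of the pan germ cell, differentiating spermatogonia and meiotic prophase lists were lowest on wild type replicate 1 and the VRK1-deficient arrays. The other wild type arrays were higher, as they were for Dnmt3b and Dnmt3l. The list of undifferentiated spermatogonia, described further on, did not share this order. The 7 pan germ cell genes were lower in 7 of 7 cases, with a median log2 change of -1.03 and 1 called (Tdrd1, log2 change -1.11, limma adjusted p = 0.0498), against 3.66% of all tested probes. At an unadjusted p under 0.05 there were 6 of 7, against 28.8%. The brightest probe was that of Tex101. Their summed level was 23.0, 47.1, 60.7 and 64.6 in wild type and 16.2, 27.1, 25.8 and 18.7 in VRK1-deficient testes. Wild type replicate 1 lay within the VRK1-deficient range, as it did for Dnmt3l.

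Of 6 genes of differentiating spermatogonia 5 were tested, all lower, with a median of -1.48. Of these, 1 was called (Dmrtb1, log2 change -1.80, limma adjusted p = 0.0492), against 3.66% of all tested probes. At an unadjusted p under 0.05 there were 4 of 5, against 28.8%, and no probe of Sohlh1 was used here. Their summed level was 24.3, 57.0, 78.0 and 77.7 in wild type and 12.8, 29.2, 27.5 and 17.4 in VRK1-deficient testes, with the probe of Stra8 the brightest. The 10 meiotic prophase genes were all lower, with a median of -1.15 and 2 called, against 3.66% of all tested probes. The called genes were Sycp2 (log2 change -1.67, limma adjusted p = 0.0435, and -0.76 with normexp) and Stag3 (log2 change -1.03, limma adjusted p = 0.0454). At an unadjusted p under 0.05 there were 9 of 10, against 28.8%. The sums of the 10 genes were 18.4, 37.6, 42.9 and 44.9 against 13.1, 19.2, 17.9 and 13.3, with the probe of Smc1b the brightest.

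The list of undifferentiated spermatogonia did not move as 1 group. Of its 10 genes 8 were tested, 3 lower and 5 higher, with a median of 0.36 although the mean of the list moved from -1.77 to -1.83. Sall4 (log2 change -0.99, limma adjusted p = 0.0491) and Lin28a (log2 change -1.12, limma adjusted p = 0.0498) fell and Bcl6b rose (log2 change 0.61, limma adjusted p = 0.0498). The other tested probe of Sall4 was at -0.33. In all, 2 genes of the list were called lower and 1 higher, against 3.66% of all tested probes. At an unadjusted p under 0.05 there were 7 of 8, against 28.8%. No probe of Zbtb16 was used here, and Ret was well above background on 1 array. The sums were 3.12, 4.82, 4.78 and 3.77 against 3.24, 3.64, 3.38 and 3.18, with the probe of Id4 the brightest.

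Of 9 Sertoli cell genes 8 were higher, with a median of 0.45 and 0 called by limma, against 3.66% of all tested probes, and 6 at an unadjusted p under 0.05, against 28.8%. The sums, with the probe of Clu the brightest, were 300, 217, 224 and 196 in wild type and 317, 270, 272 and 307 in VRK1-deficient testes. Wild type replicate 1 was again within the VRK1-deficient range. Of 6 Leydig cell genes 4 were higher, of 5 macrophage genes 5 and of 4 endothelial genes 4, with medians of 0.28, 0.09 and 0.35 and with 0 called by limma (2, 0 and 1 at an unadjusted p under 0.05). Their sums were 33.5 to 51.2 in wild type and 44.1 to 57.2 in VRK1-deficient testes for Leydig cells (brightest probe Hsd3b1), 10.8 to 16.7 and 15.1 to 18.0 for macrophages (brightest probe Lyz2) and 2.34 to 2.93 and 3.03 to 3.52 for endothelial cells (brightest probe Cdh5). For 5 peritubular myoid genes, 4 of them lower, the median was -0.06, with 1 called lower (Cnn1, log2 change -0.99, limma adjusted p = 0.0446) and 1 at an unadjusted p under 0.05, and the sums, with the probe of Acta2 the brightest, were 138 to 153 and 121 to 155. Cd163, of macrophages, was well above background on 0 arrays. The 8 called markers were named after their values were seen, because they were called on these same arrays. Their counts under the alternatives are therefore no separate support. Without wild type replicate 1 all 8 were called, against 28.4% of all tested probes. With any other single array left out 0 of 8 were, where 3 to 68 of all tested probes were called. In those runs their limma adjusted p was between 0.0662 and 0.153, with 8 of 8 at an unadjusted p under 0.05. Of the 8, 3 were called with quantile normalization (760 of all tested probes) and 3 with slide as a block (641). With no filter on dim probes (17), within slide 1 (3) or by the methods' t-test (162), 0 were called. Bcl6b was called in 4 of 19 alternatives, and not with quantile normalization, with normexp or without scaling (limma adjusted p up to 0.259 in these). The part of germ cell and somatic content in the levels of Dnmt3b, Dnmt3a, Dnmt3l and Uhrf1 was not tested.

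**Figure D4:**
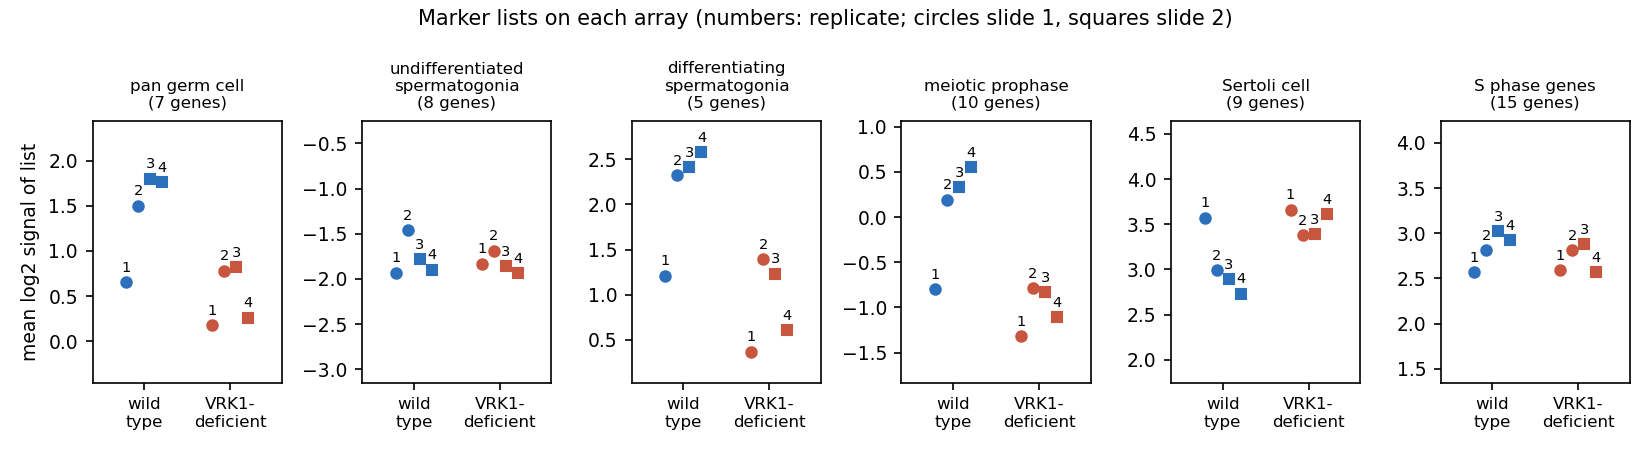
Mean log2 level of the genes of 5 marker lists and of the S phase list on each array (y axis, log2 signal minus the array's 75th percentile; every panel spans the same range), for wild type (blue) and VRK1-deficient (red) samples, with circles for slide 1, squares for slide 2 and the replicate number above each point. In the pan germ cell, differentiating spermatogonia and meiotic prophase lists wild type replicate 1 lies lowest of its genotype, and in the Sertoli cell list highest.

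Promoters of the members were read from RefSeq windows of 300 bases on GRCm38.p6, from 250 bases before to 50 after each start, with 12 windows matched to the 5 genes, 2 of which, both of Dnmt3a, overlap. The letters TTTCGCGC, of the E2F type bound by regulators of S phase genes, were searched on both strands (reverse GCGCGAAA) along with the GC box GGGCGG, the CCAAT box CCAAT and the TATA box TATAAA. All 4 motifs were chosen after the sequences had been seen. The E2F-type letters were in 2 of 5 windows of Dnmt1 and Uhrf1 and in 0 of 7 windows of Dnmt3a, Dnmt3b and Dnmt3l, against 0.323% of all 32851 windows. CCAAT was in 4 of the 5 and 0 of the 7 (37.4% of all), GGGCGG in 3 of the 5 and 6 of the 7 (35.7% of all), and TATAAA in none of the 12 (13.6% of all). A match is a description of the letters, not a site, and no match says no more than that these letters are not in the window.

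The 60 bases around the E2F-type letters are printed, with those letters in capitals, 5′ to 3′ on the strand of the gene, because they were found for Dnmt1 and Uhrf1 and in no window of the 3 other members. The Dnmt1 stretch is chr9:20952809-20952868 on the minus strand, in a window with a GC content of 69.7%, and the Uhrf1 stretch is chr17:56304102-56304161 on the plus strand, in a window with 68.3%, both in GRCm38.p6.
Dnmt1 promoter: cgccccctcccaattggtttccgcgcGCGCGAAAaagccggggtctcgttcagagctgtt
Uhrf1 promoter: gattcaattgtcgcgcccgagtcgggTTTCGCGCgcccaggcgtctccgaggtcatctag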

How the data were processed

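Total testicular RNA from 8 mice at postnatal day 8 was measured on 1-color Agilent arrays. The authors deposited the processed signals of Feature Extraction 9.5.3.1 as linear intensity values, background-subtracted and not scaled between arrays, and the deposited table of values holds the same intensities. Outlier spots were left out (58 to 134 of 45018 per array), log2 was taken of the deposited intensity values, each array was centred on its 75th percentile, and the mean of a probe's spots was used. The filter asked for a signal well above background on 4 or more of the 8 arrays. Tests used limma 3.58.1 in R 4.3.3 (lmFit, eBayes, two-sided) with Benjamini-Hochberg adjustment over all tested probes, and "called" means an adjusted p under 0.05. Differences between probes on an array were tested with an exact two-sided permutation test (70 arrangements). The fit was tested on simulated data. Symbols came from a RefSeq gene table, through the accession for 22951 probes, the symbol for 6659 and a synonym for 3109, and the file's name was kept for 8455. A gene is given by its brightest probe, and positions are those of the array files.

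Named were all member probes, Vrk1, the called genes of each pathway list (up to 4) and the 2 other genes of largest change, the brightest gene of each marker list, and the 3 probes nearest in pattern to each member. Some single genes of the lists are counted but not reported here. The members and lists were chosen with earlier results of these data known. Alternatives were quantile normalization, no scaling, normexp with an offset of 50, no filter and a filter on all 8 arrays, slide as a block, each slide alone, a replicate block, each array left out, robust variances with an intensity trend, the methods' t-test and, chosen after seeing the data, limma on the differences of the pairs. Motifs and figures were made with Python 3.11.15, pandas 2.3.3 and matplotlib 3.10.9. The number of arrays limits the precision. Protein sequences and qRT-PCR were not analysed here.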

Additional observations from a re-analysis of the deposited data

Results flagged for a closer look

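Among 100 groups of 4 samples examined (member and Vrk1 probes, named pathway genes, the brightest and the called genes of the marker lists, and the list means), 5 held a sample far from the 3 others, where chance alone marks about 1 in 20. In VRK1-deficient testes, Dnmt3a A_52_P76146 was at 2.46 in replicate 4 and at 3.00 to 3.06 in the 3 others, so that its gap to the nearest sample was 0.891 of the whole range. In wild type, Uhrf1 A_52_P314705 was at 3.36 in replicate 3 and at 2.47 to 2.62 in the 3 others, a gap of 0.832 of the range. Among the called markers, Bcl6b was at -0.98 in VRK1-deficient replicate 3 and at -1.18 to -1.15 in the 3 others (0.879 of the range). Wild type replicate 1 was low for Lin28a, at -1.25 against -0.25 to -0.17 (0.923 of the range), and for Stag3, at 2.21 against 2.90 to 3.03 (0.839 of the range). Without the arrays that stood apart for the member probes the log2 changes were -0.60 for Dnmt3a A_52_P76146 and -0.20 for Uhrf1 A_52_P314705, with the direction unchanged, and neither probe was called by limma (adjusted p = 0.127 and 0.264, within 0.0292 to 0.500 and 0.0915 to 0.692 over all alternatives). Bcl6b was not called without its array (limma adjusted p = 0.116, within 0.00763 to 0.500 over all alternatives), and Lin28a and Stag3 were called without theirs (limma adjusted p = 0.00344 for both, within 0.00344 to 0.547 and 0.00344 to 0.500).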

How the results depend on the processing

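The log2 changes of 7 of the 8 member probes kept their direction under all 19 alternatives, within -0.39 to -0.15 for Dnmt1, -0.66 to -0.14 for Uhrf1 A_52_P314705 and -0.74 to -0.22 for A_51_P491742, -0.92 to -0.60 for Dnmt3a A_52_P76146 and -1.41 to -0.65 for A_52_P169048, -1.29 to -0.80 for Dnmt3b and -1.01 to -0.41 for Dnmt3l. The exception was Dnmt3a A_52_P30497, at -0.044 without scaling between arrays and up to 0.25 otherwise. The calls were less stable. The main fit called 986 probes, 1 member probe and 2 pathway genes. Quantile normalization gave 760 probes and 2 member probes, and no scaling gave 916 probes and 2 member probes. With normexp there were 1414 probes, 3 member probes and 4 pathway genes. The filter on all 8 arrays gave 1389 of 24378 tested probes, 3 member probes and 3 pathway genes. Without a filter 17 probes were called over more tests, with 0 member probes and 0 pathway genes, and with slide as a block 641 and 0 member probes. Within slide 1 there were 3, 0 and 0, and within slide 2, with as many arrays, 1059, 2 and 3. The methods' t-test gave 162, 0 and 1 after adjustment, and 7068 probes (3495 lower and 3573 higher, 26.2% of those tested), 4 of them members, at the methods' unadjusted threshold. Intensity trend and robust variances gave 1916, 3 and 6. With 1 array left out there were 3 to 7659 probes, 0 to 5 member probes and 0 to 21 pathway genes, and 0 of 4 probe pairs and 0 of 10 gene pairs. The cause was not tested.

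With the replicate block there were 2280 probes, 4 member probes and 6 pathway genes, Piwil2 among them. The pairs could be fitted with the block only by limma, in place of the permutation test, and 2 probe pairs and 4 gene pairs then had an adjusted p under 0.05. By limma without a block, chosen after seeing the data, these were 2 and 2, so the change of test alone gave calls. Deviations of samples with the same number correlated at 0.468, 0.073, 0.188 and -0.138, and 3 of 4 wild type samples were closest to the VRK1-deficient sample with their own number. Not every pair deviated together, so the numbers were not taken to pair the samples.

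Other signs turned were those of Dnmt3a minus Dnmt3l (-0.052 with quantile normalization, -0.365 with normexp, -0.014 within slide 1, and -0.161 to 0.310 with 1 array left out, with -0.138 and -0.081 among them), Dnmt1 minus Uhrf1 (-0.024 within slide 1, and -0.011 to 0.281 with 1 array left out, lowest without wild type replicate 3), Foxk1 (0.089 with normexp), Mtrr (0.029 within slide 1), and Trdmt1 (0.056 within slide 1, and -0.196 to 0.030 with 1 array left out, highest without wild type replicate 4). A change in a probe near background, such as that of Dppa3, is limited by the signal over it.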
